A study of Mus musculus with 19 samples.

Results

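Calcineurin and the nuclear factor of activated T cells (NFAT) form the calcium branch of T cell receptor signalling, and 8 genes of this pathway were followed by name through every library of the series. They were the NFAT transcription factor genes Nfatc1, Nfatc2, Nfatc3 and Nfat5, the calcineurin catalytic subunit genes Ppp3ca, Ppp3cb and Ppp3cc, and Rcan1, a calcineurin inhibitor gene. The list was set by gene symbol and not by a cut on measured values, but earlier results of these data were known when it was chosen. These are 8 of the 53656 genes in each count table, and all 8 passed edgeR's filter on low counts in all 3 fits.

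When the T cell receptor is engaged, calcium is released from intracellular stores and enters through the plasma membrane, and calcium-loaded calmodulin activates the phosphatase calcineurin. Calcineurin is a dimer of a catalytic A subunit and a regulatory B subunit, and it dephosphorylates NFATc proteins, which then enter the nucleus. In T cells NFAT is known for driving cytokine genes together with AP-1 and, with little AP-1, genes of exhaustion and anergy.

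RNA sequencing had been run on 19 libraries of CD8 T cells of C57BL/6 mice in 7 groups, to compare T cells from liver tumours with naive cells and with T cells transduced with TOX, a transcription factor of exhausted T cells. SV40-I and OT-I are transgenic T cell receptors; the antigen is the large T protein of SV40 for SV40-I cells and ovalbumin for OT-I cells. The cultured groups started from naive SV40-I cells that were activated through CD3 and CD28, transduced by retrovirus and grown in IL-2, with a vector for TOX and GFP (TOX-GFP, 2 libraries) or for GFP alone (GFP, 2 libraries), and then sorted as GFP-positive. Of the ex vivo groups, each of 3 libraries, SV40-I cells marked by Thy1.1 (late SV40-I) and OT-I cells marked by Ly5.1 (late OT-I) were taken from malignant liver lesions at days 20 to 21. SV40-I cells were also sorted from lesions at days 8 to 9 as high (marker-high) or low (marker-low) for PD1, LAG3 and CD39 together, and naive SV40-I cells were sorted as CD44 low. The labels name the source of every library as splenocytes while they place 4 groups in liver lesions, and the column headings of the count tables carry WT in the marker-high and KO in the marker-low libraries, although the labels give no genotype; what these headings stand for and the marker gate cannot be told apart. Whether replicates were separate mice or cultures is not in the labels, and p-values therefore measure how far these libraries spread, which may be technical.

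Library totals were 37006508 to 54195918 counts, so that 3 counts, the upper limit that a count of 0 allows, corresponded to 0.0554 to 0.0811 CPM (counts scaled to a library total of 1e6). CD8 T cell genes were high in every library, with Cd8a, Cd8b1 and Cd3e among them and a summed level of 7 such genes from 5326 CPM in culture to 25810 CPM in late SV40-I cells. Transcripts of other cells varied between libraries. The summed level of 12 hepatocyte genes was 1589 and 931.5 CPM in late OT-I replicates 3 and 2 and 1345 CPM in late SV40-I replicate 2, and at most 50.0 CPM in every other library. The 10 macrophage genes summed to 4104 to 6261 CPM in marker-high, 731 to 8884 CPM in marker-low and 119 to 299 CPM in naive cells. In culture they summed to 3.88 to 7.54 CPM. Marker-low replicate 2 held more of these macrophage genes (8884 CPM) than of the 7 CD8 T cell genes (8159 CPM). The CD8 T cell genes summed to 15620 and 14840 CPM in marker-low replicates 1 and 3. The erythroid and platelet list was highest in late OT-I cells (1293 to 3606 CPM) and at most 1367 CPM elsewhere, and the lists of B cells, NK cells, and endothelial and stromal cells summed to at most 247, 673 and 386 CPM in any library. In such bulk libraries, fewer cells of a type and less RNA per cell cannot be told apart.

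Rcan1 is the member whose promoter is best known as a readout of the pathway, since it has alternative first exons and the downstream start is induced by calcineurin through NFAT. The 250 bases before each RefSeq start (GRCm38.p6, minus strand) are shown for that reason, with capitals marking the NFAT core GGAAA or its reverse complement TTTCC. The upstream window is chr16:92466170-92466419 and the downstream window is chr16:92400079-92400328.
Rcan1 upstream start: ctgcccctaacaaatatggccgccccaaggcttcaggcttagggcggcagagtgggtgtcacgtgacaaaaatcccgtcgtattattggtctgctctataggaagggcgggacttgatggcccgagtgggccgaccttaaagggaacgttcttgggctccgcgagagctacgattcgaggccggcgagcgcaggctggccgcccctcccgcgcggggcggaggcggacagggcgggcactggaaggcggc
Rcan1 downstream start: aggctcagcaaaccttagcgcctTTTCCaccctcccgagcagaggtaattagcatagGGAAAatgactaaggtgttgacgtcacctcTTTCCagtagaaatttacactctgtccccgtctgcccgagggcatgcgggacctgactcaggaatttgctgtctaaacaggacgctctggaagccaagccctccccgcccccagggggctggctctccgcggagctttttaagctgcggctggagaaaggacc
The downstream window held 3 matches and the upstream window 0. Among 32851 RefSeq promoter windows of the same length, 55.6% held at least 1 match and 6.39% held 3 or more, so such letters are common and a match is a description only. The deposited counts sum both starts, so the use of either was not measured. The windows of the other members in the RefSeq table held 1 and 3 matches (Nfatc2), 0 and 1 (Nfatc3), 2 (Nfat5) and 3 (Ppp3cb); Ppp3ca and Ppp3cc had no entry, and the Nfatc1 promoter was not examined.

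Across the 5 ex vivo groups, 4 of the 8 genes differed in the edgeR quasi-likelihood test at an adjusted p under 0.05 over 16404 genes, where 30.1% of all genes did. These were Ppp3cc (adjusted p = 0.000763), Nfatc3 (0.00546), Rcan1 (0.0118) and Nfatc2 (0.0168). Nfatc1 (0.143), Ppp3cb (0.179), Ppp3ca (0.299) and Nfat5 (0.434) did not pass. The Nfatc2 and Nfatc3 values were 0.0642 and 0.0721 without the 3 hepatocyte-rich libraries, the Nfatc2 value was 0.0579 without late OT-I replicate 1 and 0.0694 without late OT-I replicate 2, and Nfatc1 passed without marker-high replicate 3 (0.0288).

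**Figure D1:**
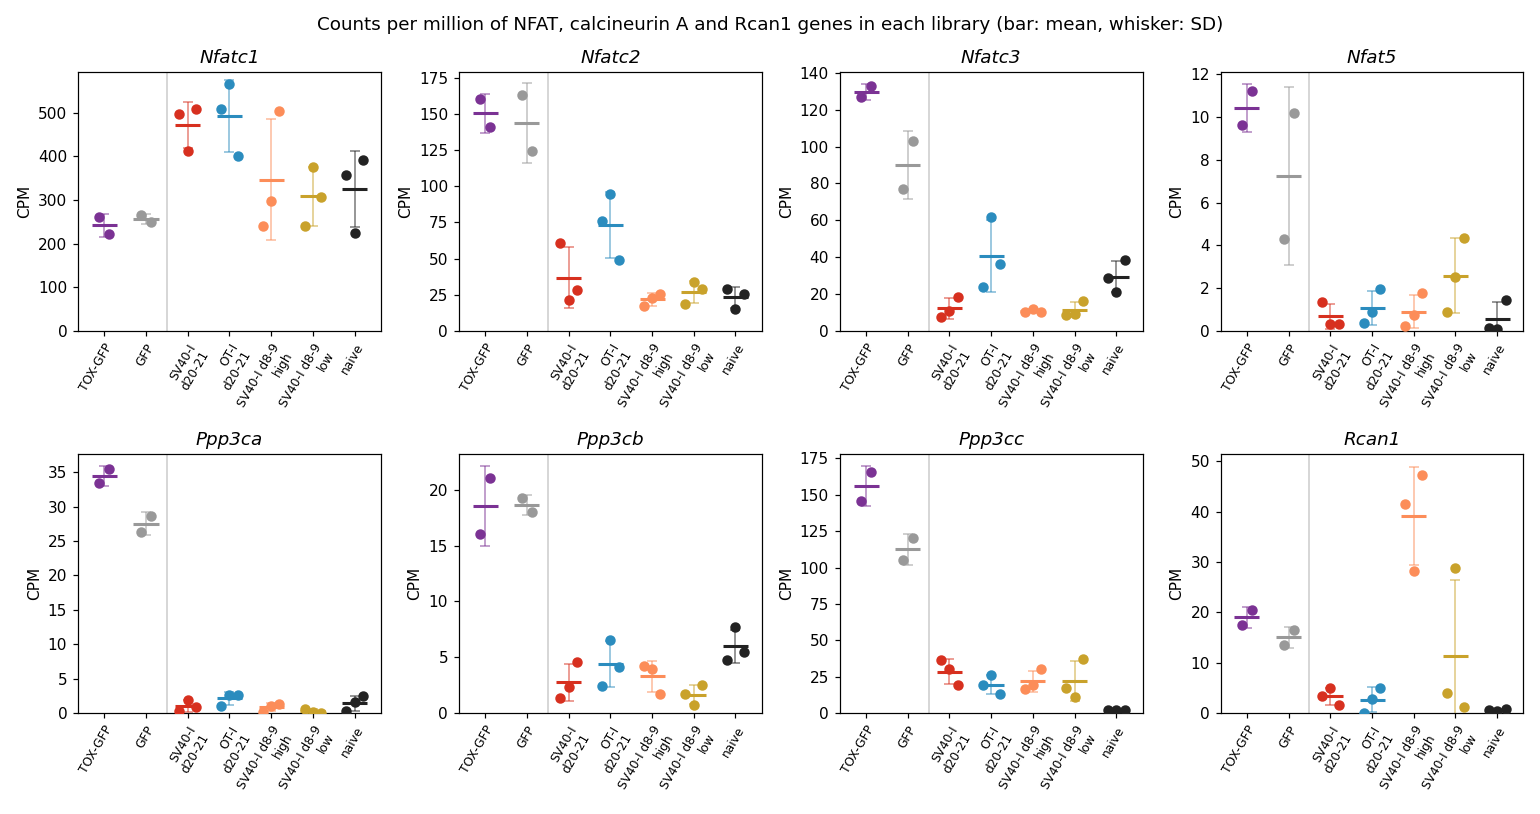
Level of each of the 8 genes in every library, in CPM on a linear axis from 0, by group from the cultured TOX-GFP and GFP cells on the left to naive cells on the right (points: libraries; bars: means; whiskers: SD). Ppp3cc lies between 1.81 and 2.19 CPM in the 3 naive libraries and at 10.98 CPM or more in every other library, and Rcan1 is at 28.3 to 47.3 CPM in marker-high cells and at 28.7 CPM in 1 marker-low library.

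The 8 genes lie on 6 chromosomes of GRCm38. Nfatc1 spans chr18:80606205-80713071 on the minus strand, Nfatc2 chr2:168476410-168601657 on the minus strand, Nfatc3 chr8:106058840-106130537 and Nfat5 chr8:107293470-107379517, both on the plus strand. Ppp3ca spans chr3:136670124-136937727 on the plus strand, Ppp3cb chr14:20499364-20546573 and Ppp3cc chr14:70217865-70289471, both on the minus strand, and Rcan1 chr16:92391953-92466146 on the minus strand. Counts are per whole gene and take in all exons and UTRs. Their summed exon length was between 2506 bases (Rcan1) and 18378 bases (Nfat5). In the exon coordinates of the deposited counts, Nfatc3 shared 219 exon bases with Esrp2 and Ppp3cc shared 91 with a clone-named locus. Each lay on the opposite strand, which unstranded counting cannot separate. The other 6 shared none.

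Nfatc1, which encodes the NFAT family member known for its own induction by NFAT in activated lymphocytes, had the highest CPM of the 8 genes in every library. It had 261.0 and 222.6 CPM in TOX-GFP cells and 265.0 and 248.6 CPM in GFP cells. Ex vivo it had 496.6, 412.0 and 509.1 CPM in late SV40-I, 509.6, 565.6 and 401.8 CPM in late OT-I, and 240.3, 296.8 and 503.5 CPM in marker-high cells. Marker-low cells had 241.0, 376.3 and 307.0 CPM and naive cells 357.2, 225.4 and 391.7 CPM. The 3 late SV40-I and 3 late OT-I libraries all lay above the naive ones, with means of 473 ± 52.8 and 492 ± 83.3 CPM against 325 ± 87.8 CPM in naive cells (SD, n = 3 each), while the days 8 to 9 groups overlapped naive cells. No comparison of Nfatc1 passed the threshold in edgeR. The log2 difference was 0.63 ± 0.28 (SE, adjusted p = 0.136) for late SV40-I against naive cells and 0.62 ± 0.28 (adjusted p = 0.214) for late OT-I against naive cells. In late SV40-I against late OT-I cells it was 0.01 ± 0.28, and in late SV40-I against marker-high cells 0.50 ± 0.28 (adjusted p = 0.312). Without marker-high replicate 3, the highest of its group, that last difference was 0.88 with an adjusted p of 0.0475 in edgeR.

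Nfatc2 encodes the NFAT protein abundant in resting T cells. Its level was 160.2 and 141.1 CPM in TOX-GFP cells and 163.4 and 124.4 CPM in GFP cells. Ex vivo it reached 61.1, 21.3 and 28.2 CPM in late SV40-I and 76.1, 94.8 and 49.1 CPM in late OT-I cells. Marker-high cells had 16.9, 22.9 and 25.7 CPM, marker-low cells 18.8, 33.9 and 28.8 CPM and naive cells 29.1, 14.8 and 25.3 CPM. Late OT-I was the only ex vivo group whose 3 libraries all lay above every naive library. Nfatc2 rose in late OT-I against naive cells, by a log2 fold change of 1.68 ± 0.41 (SE, edgeR adjusted p = 0.0254). This call was lost without naive replicate 2 (log2 1.45, adjusted p = 0.111), naive replicate 3 (1.74, 0.0742), late OT-I replicate 1 (1.61, 0.0717) or late OT-I replicate 2 (1.51, 0.0949), and without the hepatocyte-rich libraries (1.81, 0.109). The difference of late SV40-I from late OT-I cells was -0.91 ± 0.40 (adjusted p = 0.203); it was -1.51 with an adjusted p of 0.0353 in edgeR without late SV40-I replicate 1, whose 61.1 CPM lay above the lowest late OT-I library. The late SV40-I difference from naive cells was 0.77 ± 0.40 (adjusted p = 0.206).

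Nfatc3 encodes a further NFATc protein expressed in T cells. The cultured cells had the highest levels, 126.7 and 132.9 CPM in TOX-GFP and 77.2 and 103.2 CPM in GFP cells. Ex vivo, it had 7.37, 10.5 and 18.5 CPM in late SV40-I and 23.7, 61.8 and 36.4 CPM in late OT-I cells. Marker-high cells had 10.4, 11.7 and 10.3 CPM, marker-low cells 8.76, 9.29 and 16.2 CPM, and naive cells 28.7, 21.2 and 38.2 CPM. All 9 SV40-I tumour libraries lay below all late OT-I and all naive libraries. Nfatc3 was the 1 member of 8 that passed in late SV40-I against late OT-I cells, where 9.02% of all genes did (4.91% higher and 4.11% lower), and it was lower, with a log2 fold change of -1.66 ± 0.40 (SE, edgeR adjusted p = 0.0205). The call was lost without late OT-I replicate 2 (-1.35, adjusted p = 0.0902), late SV40-I replicate 1 (-1.41, 0.0833) or late SV40-I replicate 2 (-1.54, 0.0721). It was also lost in a fit of those 2 groups alone (-1.65, 0.0732) and without the 3 hepatocyte-rich libraries (-0.91, 0.643), which leaves 1 late OT-I library.

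Against naive cells, Nfatc3 fell, with a log2 fold change of -1.41 ± 0.40 (SE, edgeR adjusted p = 0.0225) in marker-high cells and -1.31 ± 0.40 (adjusted p = 0.0385) in marker-low cells. In late SV40-I cells the difference from naive cells was -1.19 ± 0.39 (adjusted p = 0.0531), just short of the threshold, and the fits with other size factors (-1.20, 0.0463), a stricter filter (-1.23, 0.0333), DESeq2 (-1.20, 0.0129) or without late SV40-I replicate 3 (-1.64, 0.0201) called it. In late OT-I against naive cells it was 0.46 ± 0.39 (adjusted p = 0.576). The marker-high call was lost without naive replicate 1 (-1.42, adjusted p = 0.0518), naive replicate 3 (-1.19, 0.0878), marker-high replicate 1 (-1.38, 0.0759), replicate 2 (-1.47, 0.0621) or replicate 3 (-1.38, 0.0579). The marker-low call was lost without marker-low replicate 1 (-1.18, 0.125) or replicate 2 (-1.25, 0.0898), and without naive replicate 1 (-1.33, 0.0837) or replicate 3 (-1.10, 0.140). With macrophage transcripts as a covariate, the differences were -1.58 (0.200) in marker-high cells and -1.44 (0.163) in marker-low cells. Macrophage sums in both groups lay above all naive ones, so this fit cannot separate macrophage RNA from group. The GC content of a gene moved with the same comparisons. Nfatc3 (44.0% GC), Nfat5 and Ppp3cb belong to the fifth of genes with the lowest GC, whose median log2 difference was -0.53 in late SV40-I against late OT-I cells and -0.45, -0.35 and -0.43 in late SV40-I, marker-high and marker-low cells against naive cells. The part of GC content in these differences was not tested.

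Nfat5 encodes the calcineurin-independent, osmotic-stress-responsive family member, and it was scarce. It had 9.63 and 11.2 CPM in TOX-GFP and 4.29 and 10.2 CPM in GFP cells, against 0.0876 to 4.35 CPM over all ex vivo libraries. The highest ex vivo libraries were marker-low replicates 3 and 2, at 4.35 and 2.51 CPM, and naive cells had 0.116, 0.0876 and 1.46 CPM. The group ranges overlapped among all 5 ex vivo groups and no ex vivo comparison passed; the largest difference, marker-low against naive cells, was 2.26 ± 1.19 on the log2 scale (SE, edgeR adjusted p = 0.205).

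Per kilobase of exon, Nfatc1 made up 84.2 to 95.2% of the summed level of the 4 NFAT genes in every ex vivo library, and 54.2 to 61.6% in the 4 cultured libraries. In naive cells its share was 90.3 ± 0.126%, with 5.19 ± 0.522% for Nfatc3, 4.47 ± 0.596% for Nfatc2 and 0.0541 ± 0.0711% for Nfat5 (SD, n = 3). In late OT-I cells Nfatc2 took 8.89 ± 1.25% and Nfatc3 4.48 ± 1.68%, and in late SV40-I cells Nfatc2 took 5.00 ± 2.49% and Nfatc3 1.52 ± 0.653%. The summed level was 58.4 ± 4.49 CPM per kilobase in TOX-GFP and 56.2 ± 2.38 in GFP cells (SD, n = 2 each). Ex vivo it was 68.1 ± 8.47 in late SV40-I, 76.7 ± 14.3 in late OT-I, 49.7 ± 19.03 in marker-high cells and 45.1 ± 9.89 in marker-low cells, and 48.4 ± 13.1 in naive cells (n = 3 each). All late OT-I libraries lay above all 4 cultured ones and all late SV40-I libraries above both GFP ones, while the GFP range overlapped that of naive cells. In GFP cells Nfatc2 made up 24.1 ± 3.63% and Nfatc3 13.8 ± 3.38% of it. These shares were not adjusted for GC content.

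**Figure D2:**
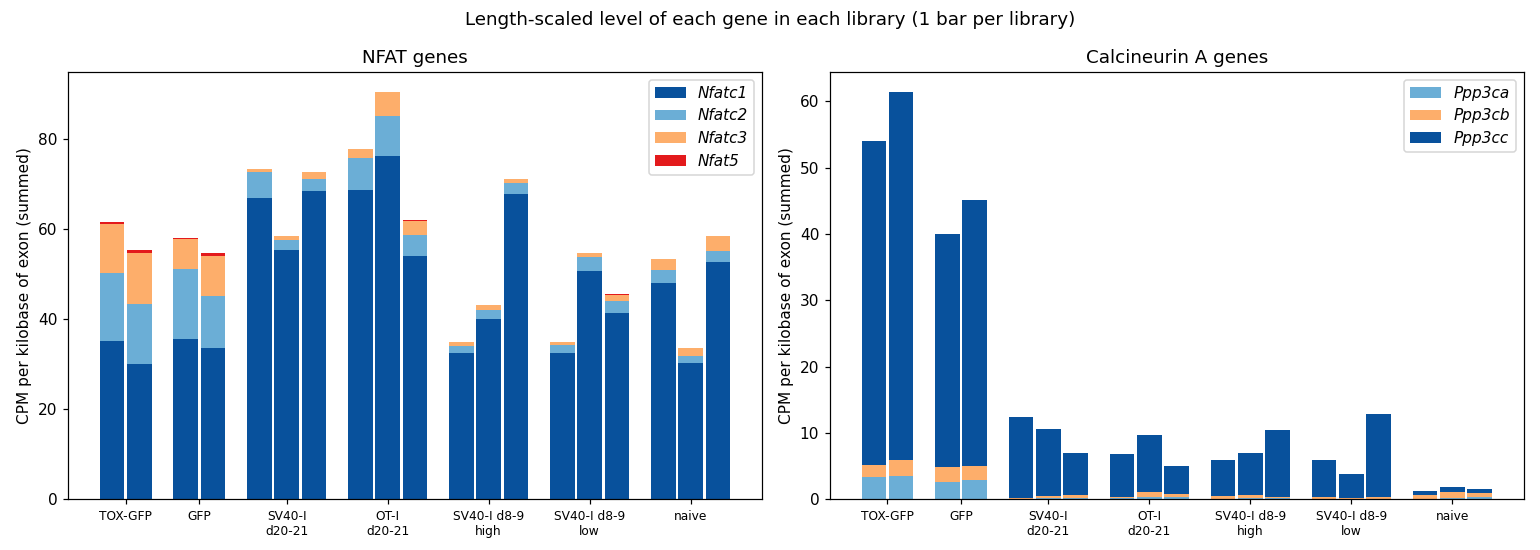
Summed CPM per kilobase of exon of the 4 NFAT genes (left) and the 3 calcineurin A genes (right), with 1 stacked bar per library and linear axes from 0. Nfatc1 fills 84.2 to 95.2% of each ex vivo NFAT bar, and Ppp3cc fills 41.3 to 53.4% of the naive calcineurin bars and 85.35% or more of every bar from tumours.

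Ppp3cc, a catalytic subunit gene, was the one member that passed in all comparisons with naive cells. Its product, the gamma isoform of calcineurin A, is best known from testis. It had 146.0 and 165.5 CPM in TOX-GFP and 105.1 and 120.1 CPM in GFP cells. Ex vivo it had 36.3, 30.2 and 18.9 CPM in late SV40-I and 19.3, 26.0 and 12.8 CPM in late OT-I cells. Marker-high cells had 16.2, 18.9 and 30.1 CPM, marker-low cells 17.02, 10.98 and 37.3 CPM, and naive cells 1.94, 2.19 and 1.81 CPM. No library of any other group came within the naive range, while the 4 tumour groups overlapped each other. Ppp3cc rose against naive cells in each of them in edgeR. The log2 fold change was 3.92 ± 0.48 (SE, adjusted p = 0.000113) in late SV40-I, where 1 of 8 members passed against 18.0% of all genes (11.1% higher and 6.86% lower). It was 3.29 ± 0.47 (adjusted p = 0.000654) in late OT-I, where 2 of 8 members passed against 7.35% of all genes (5.06% higher and 2.29% lower). In marker-high cells it was 3.48 ± 0.47 (adjusted p = 0.000223) and in marker-low cells 3.50 ± 0.47 (adjusted p = 0.000347), with 3 of 8 members passing in each. Of all genes, 23.4% passed in marker-high (14.3% higher and 9.10% lower) and 16.8% in marker-low cells (10.6% higher and 6.21% lower), always against naive cells. Each of these calls held in all 13 or 14 alternative settings, with log2 fold changes from 2.91 to 4.79. These 4 comparisons share the naive libraries.

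Between the tumour groups no difference of Ppp3cc passed in edgeR: the log2 difference was 0.63 ± 0.42 (SE, adjusted p = 0.437) in late SV40-I against late OT-I cells, -0.02 ± 0.42 in marker-high against marker-low cells and 0.44 ± 0.42 in late SV40-I against marker-high cells (adjusted p = 0.58). With the macrophage list as a covariate, added after the data were seen, the log2 rise of Ppp3cc against naive cells was 4.79 for marker-high and 4.39 for marker-low cells. The cultured libraries, with 3.88 to 7.54 CPM of that list, had the highest Ppp3cc levels, but they also differ from the tumour groups in activation and transduction. That list summed to 119 to 299 CPM in naive, 4104 to 6261 CPM in marker-high and 731 to 8884 CPM in marker-low cells. As the naive range overlaps neither of the others, the covariate fit cannot separate macrophage RNA from group. The part of macrophage RNA in the ex vivo Ppp3cc levels was therefore not tested.

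Ppp3ca and Ppp3cb encode the alpha and beta catalytic isoforms, of which beta is known as the main one in mouse T cells. Ppp3ca was at 33.4 and 35.4 CPM in TOX-GFP and 26.3 and 28.7 CPM in GFP cells, against 0.0621 to 2.68 CPM in the 15 ex vivo libraries. Ppp3cb was at 16.0 and 21.1 CPM in TOX-GFP and 19.3 and 18.01 CPM in GFP cells. Ex vivo it had 1.37, 2.34 and 4.58 CPM in late SV40-I, 2.42, 6.57 and 4.13 CPM in late OT-I, 4.19, 3.94 and 1.70 CPM in marker-high and 1.74, 0.728 and 2.49 CPM in marker-low cells, and 4.79, 7.67 and 5.44 CPM in naive cells. All late SV40-I, marker-high and marker-low libraries lay below all naive ones. The log2 difference from naive cells was -1.03 ± 0.59 (SE, edgeR adjusted p = 0.247) in late SV40-I and -0.84 ± 0.59 (0.319) in marker-high cells. In marker-low cells it was -1.80 ± 0.61 (0.0583), which DESeq2 (-1.84, adjusted p = 0.00638) and the stricter filter (-1.88, 0.0488) called. No ex vivo difference of Ppp3ca passed; with 3 to 125 counts in these libraries its folds carry SEs above 1 on the log2 scale.

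Levels of the 3 isoforms were compared per kilobase of exon, since their lengths differ. In naive cells Ppp3cc made up 45.4 ± 6.89%, Ppp3cb 45.3 ± 3.71% and Ppp3ca 9.22 ± 7.38% of the summed calcineurin A level (SD, n = 3). The Ppp3cc share was 95.1 ± 3.65% in late SV40-I, 89.8 ± 4.55% in late OT-I, 93.5 ± 2.97% in marker-high cells and 97.0 ± 1.14% in marker-low cells. In culture it was 90.4 ± 0.0899% in TOX-GFP and 88.5 ± 0.824% in GFP cells (n = 2 each). The summed level was 9.95 ± 2.74 CPM per kilobase in late SV40-I, 7.20 ± 2.38 in late OT-I, 7.73 ± 2.37 in marker-high cells and 7.50 ± 4.70 in marker-low cells, and 1.48 ± 0.275 in naive cells. Transcript levels say nothing of the amount of each protein.

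Rcan1, whose protein binds and inhibits calcineurin, ran from 0.0905 to 47.3 CPM ex vivo. It was at 17.6 and 20.5 CPM in TOX-GFP and 13.5 and 16.5 CPM in GFP cells. Late SV40-I cells had 3.30, 4.96 and 1.61 CPM, late OT-I cells 0.0905, 2.81 and 5.04 CPM, and marker-high cells 41.6, 28.3 and 47.3 CPM. Marker-low cells had 3.99, 28.7 and 1.14 CPM and naive cells 0.504, 0.351 and 0.873 CPM. The marker-high libraries stood above all other ex vivo libraries except marker-low replicate 2, which lay within their range. Against naive cells, Rcan1 rose by a log2 fold change of 6.12 ± 1.36 (SE, edgeR adjusted p = 0.00666) in marker-high and 4.35 ± 1.25 (adjusted p = 0.0318) in marker-low cells. It did not pass in late SV40-I (2.59 ± 1.17, adjusted p = 0.144; called at 0.0381 in a fit of those 2 groups) or in late OT-I cells (2.20 ± 1.16, adjusted p = 0.300; -2.54 without the hepatocyte-rich libraries).

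The marker-low rise rests on replicate 2: without it, the log2 fold change was 2.17 (edgeR adjusted p = 0.179). It was also not called without naive replicate 1 (4.26, adjusted p = 0.0999), replicate 2 (4.09, 0.102) or replicate 3 (4.75, 0.0845), nor in a fit of those 2 groups (4.31, 0.0547). The difference between marker-high and marker-low cells did not pass (log2 1.77 ± 1.11, SE, edgeR adjusted p = 0.618), and 0 of 8 members passed there, against 1.19% of all genes (0.475% higher and 0.719% lower); without marker-low replicate 2 the Rcan1 difference was 3.87 (adjusted p = 0.174). In late SV40-I against marker-high cells the Rcan1 difference was -3.53 ± 1.19 (adjusted p = 0.109), and 0 of 8 members passed against 5.33% of all genes (1.76% higher and 3.57% lower). That difference was called by DESeq2 (-3.49, adjusted p = 0.0102) and in a fit of those 2 groups (-3.53, 0.022).

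Ex vivo, Rcan1 was highest in the libraries with the most macrophage transcripts, as the scatter of both shows. At lower levels the 2 moved together in some groups and not in others. Late SV40-I replicates 1, 3 and 2 had 63.5, 876.8 and 1126 CPM of the macrophage list and 3.30, 1.61 and 4.96 CPM of Rcan1. In late OT-I replicates 1, 2 and 3 both rose in the same order, with 334.6, 464.7 and 702.6 CPM of the list and 0.0905, 2.81 and 5.04 CPM of Rcan1. Marker-low replicates 3 and 1 had 731 and 2079 CPM of the list and 1.14 and 3.99 CPM of Rcan1. The naive libraries had 119 to 299 CPM of the list and at most 0.873 CPM of Rcan1. The macrophage list summed to 6261, 4104 and 4797 CPM in marker-high cells and to 2079, 8884 and 731 CPM in marker-low cells, so the marker-low library with the most Rcan1 also had the most macrophage RNA of all 19 libraries. The macrophage genes Csf1r and Lyz2 ran from 519 to 1000 CPM and from 3060 to 3750 CPM in marker-high cells, against 26.4 to 83.9 CPM and 32.4 to 105 CPM in naive cells. With the summed list as a covariate, an alternative added after the data were seen, the Rcan1 difference from naive cells was 3.72 (edgeR adjusted p = 0.247) in marker-high and 1.83 (adjusted p = 0.585) in marker-low cells, and the difference among the 5 groups did not pass (adjusted p = 0.229). The macrophage genes at 0 in a library were at most 2 of 10 ex vivo. In culture, where the list summed to at most 7.54 CPM, Clec4f and Marco were at 0 in all 4 libraries and Rcan1 was at 13.5 to 20.5 CPM. All naive sums of the list lay below all marker-high and marker-low sums, so the covariate fit cannot separate macrophage RNA from group. The part of macrophage RNA in the ex vivo Rcan1 levels was therefore not tested.

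**Figure D3:**
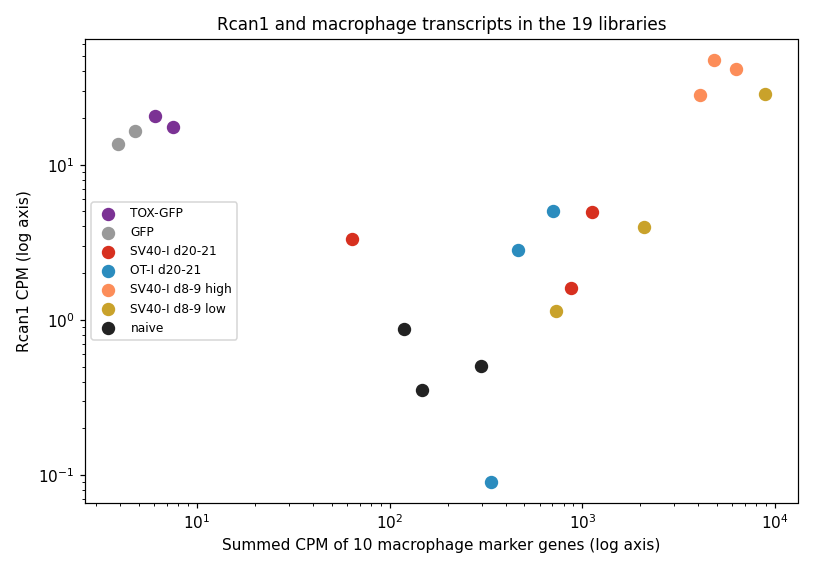
Rcan1 level against the summed level of 10 macrophage marker genes in the 19 libraries, both in CPM on log axes (1 point per library, coloured by group). The marker-high libraries and marker-low replicate 2 lie together at 28.3 CPM of Rcan1 or more and 4104 CPM of macrophage genes or more, and the 4 cultured libraries have 13.5 to 20.5 CPM of Rcan1 at 3.88 to 7.54 CPM of macrophage genes.

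The genes with the most similar profiles were listed for the 4 members that differed ex vivo, by Pearson's r of log2(CPM + 1) over the 15 ex vivo libraries among 6870 genes. Ppp3cc was most like Fasl (r = 0.945), which encodes the death ligand of cytotoxic T cells, Serpinb6b (0.944) and Ppm1j (0.940). Nfatc3 was most like Gosr1 (0.942), Xrn2 (0.938) and Sp100 (0.934), and Nfatc2 was most like Usp48 (0.867), Slc20a1 (0.859) and Itpripl1 (0.849). Rcan1 was most like Gpr35 (0.923), Grn (0.912) and Fcgr4 (0.907), of which Fcgr4 encodes an Fc receptor of mouse macrophages and neutrophils. The libraries share their groups, depth and admixed RNA, and these r values are descriptions.

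**Figure D4:**
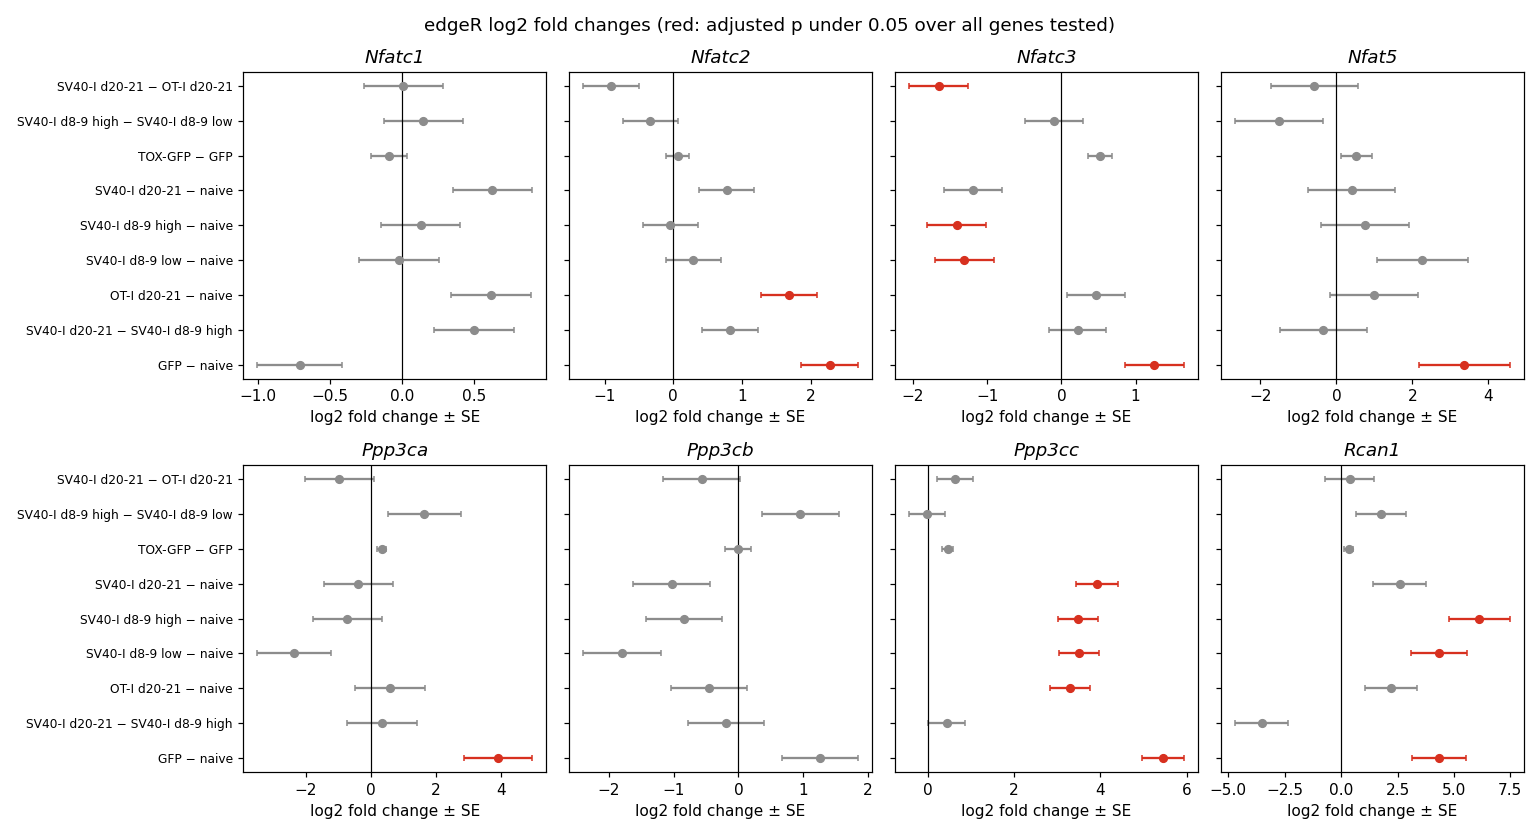
Fitted log2 fold changes of the 8 genes in 9 comparisons, with SE; a positive value means higher in the group named first. Red points passed at an adjusted p under 0.05 over all genes tested, and Ppp3cc is red in all 5 comparisons with naive cells, with values from 3.29 to 5.45.

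In GFP against naive cells 6 of 8 members rose in edgeR, against 32.6% of all genes tested that changed in either direction and 17.6% that rose. The log2 fold changes were 5.45 ± 0.49 for Ppp3cc (SE, adjusted p = 1.57e-06), 4.34 ± 1.20 for Rcan1 (0.0114), 3.90 ± 1.05 for Ppp3ca (0.00978) and 3.37 ± 1.19 for Nfat5 (0.041), and 2.27 ± 0.41 for Nfatc2 (0.000601) and 1.25 ± 0.40 for Nfatc3 (0.0245). Ppp3cb was at 1.26 ± 0.59 (adjusted p = 0.118) and Nfatc1 at -0.71 ± 0.30 (adjusted p = 0.0798), so the most abundant NFAT gene was the 1 member with a lower mean in culture. The calls of Ppp3cc, Rcan1, Ppp3ca and Nfatc2 held in all 11 alternatives. Nfatc3 was not called without GFP replicate 2 (1.06, adjusted p = 0.161), naive replicate 1 (1.24, 0.0619) or naive replicate 2 (1.08, 0.0843). Nfat5 was not called without either GFP replicate (log2 3.94, adjusted p = 0.0567 without replicate 1; log2 2.62, adjusted p = 0.225 without replicate 2), naive replicate 1 (2.89, 0.119) or naive replicate 2 (2.87, 0.111), without a filter (3.39, 0.0508) or in a fit of those 2 groups (3.37, 0.0702). Ppp3cb was called by DESeq2 (1.31, 0.0487) and in the fit of those 2 groups (1.27, 0.0309), and Nfatc1 with the stricter filter (-0.72, 0.0399) and without naive replicate 2 (-0.90, 0.0363). Culture, activation, transduction and the absence of other cells cannot be told apart here. Scaling by library totals in place of TMM would move the median of all genes by 0.31 in this comparison.

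No member passed in TOX-GFP against GFP cells. In the check of the transduced gene, Tox was at 118 and 156 CPM in TOX-GFP cells and at 13.8 and 21.4 CPM in GFP cells, a log2 difference of 2.96 (edgeR adjusted p = 0.207), in which reads of the vector and of the mouse gene were not separated. With 2 libraries a group, 0 of 8 members and 0.00% of all genes passed in edgeR, while DESeq2 called 494 genes and 0 members. An unadjusted edgeR p under 0.05 was found for 1906 genes (13.04%) and for 2 of 8 members. These were Ppp3cc at 0.47 ± 0.13 (adjusted p = 0.265) and Nfatc3 at 0.52 ± 0.16 (adjusted p = 0.298). Ppp3ca was at 0.32 ± 0.15 (adjusted p = 0.438), Rcan1 at 0.34 ± 0.20 (0.512), Nfat5 at 0.52 ± 0.42 (0.641) and Ppp3cb at -0.01 ± 0.20 (0.992). Without GFP replicate 2, edgeR called 1400 genes and 3 members, Nfatc3 (0.73, adjusted p = 0.0235), Nfat5 (1.26, 0.0366) and Ppp3cc (0.55, 0.0409), with the single GFP library taken to vary like the TOX-GFP ones. The Nfatc1 difference was -0.09 ± 0.12 and the Nfatc2 difference 0.06 ± 0.17.

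Upstream of calcineurin, Stim1 and Orai2, both genes of store-operated calcium entry, were lower in the 3 SV40-I tumour groups than in naive cells, and the channel gene Orai3 was higher in late SV40-I cells (log2 1.29 ± 0.25, SE, edgeR adjusted p = 0.00332). Of 10 genes from phospholipase C to the calcium channels, 4 fell and 1 rose in late SV40-I, 5 fell in marker-high and 4 fell in marker-low cells, and none passed in late OT-I cells. Of all genes, 6.86% fell and 11.1% rose in late SV40-I cells, 9.10% fell in marker-high and 6.21% fell in marker-low cells, and 7.35% passed in either direction in late OT-I cells. The median log2 difference of the list was -0.78, -1.37, -0.97 and -0.09 in these 4 comparisons, beside 0.04 to 0.09 for all genes. Stim1, the calcium sensor of the endoplasmic reticulum, averaged 101 ± 5.17 CPM in late SV40-I, 64.5 ± 15.02 in marker-high cells and 112 ± 35.8 in marker-low cells, and 271 ± 63.3 CPM in naive cells (SD, n = 3 each). Its log2 fold change was -1.34 ± 0.24, -2.04 ± 0.24 and -1.22 ± 0.24 (edgeR adjusted p = 0.0018, 9.23e-05 and 0.00471). Orai2, a subunit of the plasma membrane calcium channel, averaged 67.7 ± 7.55 CPM in late SV40-I, 66.9 ± 9.68 in marker-high cells and 148 ± 62.1 in marker-low cells and 324 ± 50.2 CPM in naive cells, with log2 fold changes of -2.17 ± 0.28, -2.24 ± 0.28 and -1.07 ± 0.27 (adjusted p = 0.000179, 0.000138 and 0.0196). The inositol trisphosphate receptor gene Itpr3 was lower, at -1.46 ± 0.33, in marker-low cells (adjusted p = 0.00995). Its mean was not low in that group alone: 14.8 CPM in marker-low, 10.6 CPM in marker-high and 18.5 CPM in late SV40-I cells. Late OT-I cells averaged 39.7 CPM and naive cells 42.2 CPM.

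Late SV40-I and late OT-I cells differed in the same list, with 2 genes higher and 3 lower in late SV40-I cells, where 4.91% of all genes were higher and 4.11% lower. Orai2 was lower, with a log2 fold change of -1.73 ± 0.28 (SE, edgeR adjusted p = 0.00177), and so was the receptor gene Itpr1 at -2.63 ± 0.49 (adjusted p = 0.00474), with 4.23 ± 1.32 CPM in late SV40-I and 27.4 ± 10.1 CPM in late OT-I cells (SD, n = 3 each). In marker-high against marker-low cells none of the 10 passed, with a median of -0.52. In GFP against naive cells 1 rose and 4 fell, where 32.6% of all genes passed in either direction, with Stim1 at -2.66 ± 0.28 (adjusted p = 6.56e-06) and Orai2 at -2.65 ± 0.31 (1.49e-05).

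Among the 4 detected genes of the regulatory B subunit and calmodulin, none passed against naive cells in the 4 tumour groups. Of all genes, 18.0% passed in late SV40-I, 23.4% in marker-high, 16.8% in marker-low and 7.35% in late OT-I cells. With 4 genes, such a count says little about the list. Calm3, a calmodulin gene, was higher in late SV40-I than in late OT-I cells, at 199 ± 51.6 against 77.0 ± 45.0 CPM (SD, n = 3 each; log2 1.42 ± 0.39, edgeR adjusted p = 0.0392). In GFP cells the B subunit gene Ppp3r1 averaged 105 ± 20.2 CPM (n = 2), against 5.29 ± 0.592 CPM in naive cells (n = 3), a log2 rise of 3.93 ± 0.37 (edgeR adjusted p = 2.47e-06). The testis form Ppp3r2 had no count in any library, and Nfatc4, the remaining NFATc gene, was at most 0.0638 CPM. Nfatc2ip, which encodes an NFATc2-interacting protein, passed in no comparison.

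Of 9 other calcineurin inhibitors and anchors, 6 could be tested ex vivo, and Fkbp1a was the 1 gene that passed between any tumour group and naive cells. It rose in marker-high cells, where 23.4% of all genes passed and 14.3% were higher. In late SV40-I, marker-low and late OT-I cells 18.0%, 16.8% and 7.35% of all genes passed, so these counts do not set the list apart. Akap5, Homer2 and Rcan2 were at most 0.409 CPM in any library. Fkbp1a encodes FKBP12, the protein through which tacrolimus inhibits calcineurin. It averaged 223 ± 112 CPM in marker-high and 54.5 ± 16.9 CPM in naive cells (SD, n = 3 each). The log2 difference was 2.06 ± 0.59 (SE, edgeR adjusted p = 0.0239). Like the other calls in the pathway lists, this call was not tested under the alternative settings. The part of macrophage RNA in the Fkbp1a difference was not tested either. In GFP against naive cells, 2 of 7 rose and 2 fell, beside 32.6% of all genes called and 17.6% higher, with Fkbp1a at 3.42 ± 0.60 (adjusted p = 0.000431) and Cabin1, which encodes a calcineurin-binding inhibitor, at -1.61 ± 0.21 (3.36e-05).

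The kinases that rephosphorylate NFAT and the exporter Xpo1 made a list of 13 genes. Against naive cells, 2 rose and 2 fell in late SV40-I, 1 rose and 2 fell in marker-high and 2 fell in marker-low cells, and none passed in late OT-I cells; of all genes, 18.0%, 23.4%, 16.8% and 7.35% passed in these comparisons, so the shares in marker-high and marker-low cells lay near those of all genes. Dyrk2, a kinase known to prime NFAT for export, averaged 3.49 ± 2.01 CPM in late SV40-I, 1.21 ± 0.377 in marker-high cells and 4.41 ± 2.06 in marker-low cells, and 14.4 ± 0.412 CPM in naive cells (SD, n = 3 each). It was lower, with a log2 fold change of -3.54 ± 0.57 in marker-high cells (SE, edgeR adjusted p = 0.000778) and -1.66 ± 0.52 in marker-low cells (0.0455). Dyrk1a was lower too, at -1.71 ± 0.42 in late SV40-I (0.0136), -1.98 ± 0.43 in marker-high cells (0.00559) and -1.38 ± 0.42 in marker-low cells (0.0389). Of the casein kinase genes, Csnk1d was higher in late SV40-I cells, by 1.24 ± 0.24 against naive cells (0.00295) and by 0.91 ± 0.24 against late OT-I cells (0.0302), and Csnk1e was 2.18 ± 0.49 higher than in late OT-I cells (0.0143). Csnk1a1 did not pass in late SV40-I cells, at -0.35 against naive cells (0.547) and -0.28 against late OT-I cells (0.744). In GFP against naive cells 4 of 13 rose and none fell, beside 32.6% of all genes called and 17.6% higher, with Csnk1a1 at 3.20 ± 0.38 (1.72e-05) and Gsk3b at 2.48 ± 0.52 (0.00169).

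Of 12 targets linked to T cell dysfunction, 9 were higher in late SV40-I than in late OT-I cells and none was lower, with a median log2 difference of 3.28 beside -0.04 for all genes (also 3.28 with Tox2, at 0 in late OT-I cells, at its bound); 8 rose in late SV40-I, 10 in marker-high, 10 in marker-low and 3 in late OT-I cells against naive cells, where 1 also fell in late OT-I cells. Of all genes, 4.91% were higher in late SV40-I than in late OT-I cells, and 11.1%, 14.3%, 10.6% and 5.06% rose in the 4 groups against naive cells. In late OT-I against naive cells 2.29% of all genes fell. Pdcd1, which encodes PD1, averaged 3915 ± 1163 CPM in late SV40-I and 104 ± 20.7 CPM in late OT-I cells (SD, n = 3 each; log2 5.29 ± 0.42, edgeR adjusted p = 1.26e-05), and Tox averaged 831 ± 147 and 25.0 ± 6.35 CPM in the same groups (5.12 ± 0.41, 1.26e-05). In marker-high against marker-low cells 2 of the 12 rose, Pdcd1 (2.34 ± 0.37, edgeR adjusted p = 0.0121) and Tox (2.56 ± 0.36, 0.00663), and Nr4a1 fell (-2.43 ± 0.46, 0.023). Of all genes, 0.475% were higher and 0.719% lower there, and PD1 itself was part of the gate. Nr4a1 was also lower in late SV40-I than in marker-high cells, at 26.7 ± 11.6 against 186 ± 80.2 CPM (-2.76 ± 0.46, 0.00453).

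Of 9 effector targets, the cytokine gene Il2 was lower in both tests between tumour groups that follow. It averaged 0.559 ± 0.373 CPM in marker-high cells and 23.7 ± 5.86 CPM in marker-low cells (SD, n = 3 each; log2 -5.44 ± 1.11, edgeR adjusted p = 0.0332), and 0.0736 ± 0.0642 CPM in late SV40-I and 2.87 ± 1.06 CPM in late OT-I cells (-5.18 ± 1.16, 0.0126), where the late SV40-I level lay at the limit that 3 counts set and the fold depends on the prior count. Tnf was 27.6 ± 18.7 CPM in marker-high cells and 181 ± 18.3 CPM in marker-low cells (-2.74 ± 0.48, 0.0172), and both genes were the 2 of 9 that fell there, beside 0.719% of all genes. Csf2 was higher in late SV40-I than in late OT-I cells, at 3.36 ± 1.09 against 0.270 ± 0.156 CPM (3.69 ± 0.79, edgeR adjusted p = 0.0146), while 3 of 9 were lower. In that comparison 4.91% of all genes were higher and 4.11% lower. Against naive cells 3, 5, 6 and 4 of the 9 rose in late SV40-I, marker-high, marker-low and late OT-I cells and none fell, beside 11.1%, 14.3%, 10.6% and 5.06% of all genes that rose. Fasl stood at 618 ± 80.6, 322 ± 142, 146 ± 36.7 and 359 ± 47.0 CPM in those groups and at 0.111 ± 0.0241 CPM in naive cells. Transcription of targets is not a measure of NFAT activity, which these libraries do not hold.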

How the data were processed

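Gene expression was measured in 19 libraries of mouse CD8 T cells; RNA was amplified with SMART-Seq v4 and sequenced as read pairs, per the labels' protocols. Each deposited table gives raw counts, whole fragments per gene name with no normalization. The authors used featureCounts 1.6.2 with the GENCODE M17 annotation (GRCm38) and set no strand option, per the file headers. FastQC, STAR and DESeq2 are named in the submitters' processing notes. The reads carry no molecular identifiers, so limits cover counting error only.

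Samples were grouped by the labels' titles. CPM are counts scaled to a library total of 1e6. Differences were tested with edgeR 4.0.16 in R 4.3.3 (TMM, filterByExpr, robust quasi-likelihood F test) on all genes: 16404 genes in the 15 ex vivo libraries, 14614 in the 4 cultured ones, and 18608 in all 19 for GFP against naive cells. Adjusted p-values are Benjamini-Hochberg values over all genes of a comparison, with a threshold of 0.05. Printed folds include edgeR's prior count, and SEs were worked back from the F statistic. Within groups, libraries differed by more than counting noise (chi-square 27.1 to 438 per degree of freedom), so each was kept as a sample. The fits were tested on simulated data. Alternatives were other size factors, no or a stricter filter (at least 5 CPM), DESeq2 1.42.0, a replicate block, the 2 groups alone or all 19 libraries, leaving out each library or the 3 hepatocyte-rich ones, and, added after the data were seen, a macrophage covariate. These alternatives were applied to the members and to counts of genes called, and not to single genes of the pathway lists. GC content was taken from GENCODE M21 transcripts for 80.7% of ex vivo genes and for 76.8% of the genes in GFP against naive cells.

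The members, pathway lists and marker lists were chosen with earlier results of these data known. The text names all 8 members, up to 2 passing genes with the smallest p from each pathway list and comparison, and the 3 genes most like each member that differed ex vivo, among genes averaging at least 10 CPM. Marker genes, Ppp3r2 and Nfatc4, Fasl levels and the Nr4a1 and Gsk3b values follow from these lists or were named after their values were seen. One gene that the rule would name is not reported here.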

Additional observations from a re-analysis of the deposited data

How the results depend on the processing

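Under the alternatives, 969 member results kept their side of the threshold and, for folds, their direction. Of the others, 43 lost a call, 20 gained one and 56 folds changed sign. These results include the adjusted p-values of the test among the 5 ex vivo groups, which have no direction. Calls of single genes in the pathway lists, such as Fkbp1a, Calm3, Dyrk2, Dyrk1a and Il2, were not tested under the alternatives. The cause of no change was tested, except that DESeq2 and the fits with fewer libraries change the model or the number of samples by construction. Ppp3cc kept its 5 calls against naive cells in every alternative. The count of members called in late SV40-I against naive cells was 2 in place of 1 with other size factors, the stricter filter, the replicate block, DESeq2 and the 2 groups alone. Late SV40-I against marker-high cells had 1 member by DESeq2 and with the 2 groups alone, and late SV40-I against late OT-I cells had 0 with the 2 groups alone and without the hepatocyte-rich libraries, which also left 1 member in late OT-I against naive cells and 2 in the test among the 5 groups. The macrophage covariate, added after the data were seen, left 1 member in marker-high and 1 in marker-low against naive cells.

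Of all genes, DESeq2 called 2509 in late SV40-I against late OT-I (edgeR 1479), 753 in marker-high against marker-low (196), 494 in TOX-GFP against GFP (0), 4494 in marker-low against naive (2754), 2452 in late OT-I against naive (1206) and 2264 in late SV40-I against marker-high cells (874). With no filter, TOX-GFP against GFP had 6 genes. The 2 groups alone gave 4 genes for marker-high against marker-low and 325 for late SV40-I against marker-high cells. Without the hepatocyte-rich libraries there were 227 genes in late SV40-I against late OT-I, 414 in late OT-I against naive, 280 in late SV40-I against marker-high and 2773 among the 5 groups (4943 with them). The macrophage covariate gave 1388, 1202 and 161 genes in marker-high against naive, marker-low against naive and late SV40-I against marker-high cells.

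Leaving out 1 library at a time gave 872 to 1111 genes and 0 to 1 members in late SV40-I against late OT-I, 38 to 159 genes in marker-high against marker-low, 0 to 1400 genes and 0 to 3 members in TOX-GFP against GFP, 2064 to 2350 genes and 1 to 2 members in late SV40-I against naive, and 2414 to 3581 genes and 2 to 3 members in marker-high against naive cells. It gave 1402 to 2174 genes and 1 to 3 members in marker-low against naive, 773 to 861 genes and 1 to 2 members in late OT-I against naive, 311 to 1669 genes and 0 to 1 members in late SV40-I against marker-high, 3760 to 5324 genes and 4 to 6 members in GFP against naive cells, and 3799 to 5173 genes and 3 to 5 members among the 5 groups.

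The following folds changed sign. In late SV40-I against late OT-I cells, Nfatc1 was -0.02 with no filter, -0.01 with the replicate block and -0.04 without the hepatocyte-rich libraries; Nfat5 was 0.17 with the block and 1.12 without those libraries, and Ppp3cb 0.26 without them. Without them, late OT-I against naive cells gave -0.22 for Nfatc3, -0.42 for Nfat5, -0.35 for Ppp3ca and -2.54 for Rcan1, and late SV40-I against marker-high cells gave 0.04 for Nfat5 (0.49 with the block) and -0.44 for Ppp3ca. The block gave 0.00 for Nfatc1 in marker-low against naive cells, and all 19 libraries together gave 0.04 for Ppp3cb in TOX-GFP against GFP cells. With the macrophage covariate, Ppp3cc was 0.41 in marker-high against marker-low and -0.56 in late SV40-I against marker-high cells, and Nfatc2 0.72 in marker-high against naive cells. With 1 library left out, the folds that changed sign spanned, in late SV40-I against late OT-I, -0.11 to 0.11 for Nfatc1, -1.64 to 0.20 for Nfat5 and -0.19 to 1.33 for Rcan1. In marker-high against marker-low they spanned -0.23 to 0.36 for Nfatc1, -0.23 to 0.20 for Nfatc3 and -0.35 to 0.57 for Ppp3cc, and in TOX-GFP against GFP -0.21 to 0.03 for Nfatc1, -0.13 to 0.27 for Nfatc2 and -0.22 to 0.17 for Ppp3cb. Against naive cells they spanned -0.65 to 2.77 for Nfat5 and -1.24 to 0.22 for Ppp3ca in late SV40-I, -0.25 to 0.34 for Nfatc1, -0.28 to 0.16 for Nfatc2 and -0.19 to 3.12 for Nfat5 in marker-high, and -0.25 to 0.12 for Nfatc1 in marker-low cells. In late SV40-I against marker-high cells they spanned -0.23 to 0.47 for Nfatc3, -1.40 to 0.59 for Nfat5, -0.44 to 0.78 for Ppp3ca and -0.78 to 0.13 for Ppp3cb.

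Replicate numbers did not pair the libraries: deviations of same-numbered ex vivo libraries correlated between -0.218 and 0.273 (30 pairs, 5 over 0.1), against -0.414 to 0.359 for other pairs, and 0.0457 in culture. With the replicate block, Rcan1 in marker-low against naive cells was 3.99 (edgeR adjusted p = 0.0646) and Nfatc3 in late SV40-I against naive cells was -1.26 (0.0318). Depth limits Nfat5, Ppp3ca and Ppp3cb ex vivo, where some libraries hold few counts.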
